A study of Mus musculus with 12 samples.

Results

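Genes known as hypoxia-induced targets outside glycolysis were followed in cultured myotubes of the mouse, which are muscle cells with many nuclei, made by the fusion of myoblasts. They were taken by symbol from a given list and make up 32 of the 20201 genes in the deposited table; all 32 were present, and all 32 had a mean of 10 or more normalized counts, the minimum for testing. The myoblasts were primary cells from mice with a floxed Bmal1 gene, which encodes the core activator of the circadian clock. After differentiation, the myotubes received adenovirus for 48 h, either expressing Cre, which deletes the floxed gene, or carrying an empty vector, and were then kept for 6 h at 21% or 1% O2 in medium with 2% horse serum. How many mice gave the myoblasts, and whether libraries came from separate cultures, is not stated, so p-values measure only the spread between libraries, which may be technical.

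The labels give 2 groups of 6 libraries: wildtype, all labelled 21% O2, and Bmal1 knockout, all labelled 1% O2. The design text describes both oxygen levels for both viruses. Each label covers 2 runs of 3 consecutive titles, called here the first set (replicates 1 to 3) and the second set (replicates 4 to 6). The labels do not say what separates the sets, and no oxygen level is assigned to a set here. Between the labels as they stand, genotype and oxygen cannot be told apart.

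The libraries held 6376584 to 12463339 recovered reads, of which 11 abundant, mostly non-coding genes took 50.6% to 66.5%. Their share was 62.1% to 64.8% in the first and 50.6% to 53.9% in the second wildtype set, against 53.5% to 62.6% and 57.0% to 66.5% in the knockout sets. Arntl, the gene symbol for Bmal1, stood at 132.9 to 179.0 normalized counts in the wildtype libraries and at 41.7 to 48.6 in the knockout libraries, with no overlap. Markers of skeletal muscle were measured for 10 of 10 genes, and their summed level was 15284 to 20046 normalized counts in wildtype and 29457 to 32562 in knockout libraries. Fibroblast markers, led by collagen genes, summed to 81263 to 112815 in all libraries. Their sum was 81263 to 90198 in the first and 105234 to 112815 in the second knockout set. The wildtype sets overlapped (84035 to 92096 and 88980 to 99088). Endothelial markers summed to 956 to 1076 in wildtype and 1240 to 1549 in knockout libraries, with no overlap. The endothelial sums of the knockout sets also lay apart (1240 to 1306 and 1377 to 1549), and those of the wildtype sets overlapped. Immune markers summed to 20.5 to 59.1, with 4 of the 5 measured below a mean of 10, and of adipocyte markers only Fabp4 passed that mean. The part of these cells in the results below was not tested. In bulk RNA, fewer cells of a type and less RNA per cell cannot be told apart.

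Cells sense low oxygen through prolyl hydroxylases, which need oxygen to mark the HIF alpha subunits for destruction by the VHL ubiquitin ligase. When oxygen is short, HIF alpha persists, pairs with ARNT and binds the core letters of the hypoxia response element in DNA. Beside the genes of glycolysis, HIF targets include genes for mitochondrial clearance, lipid storage, protein oxidation in the endoplasmic reticulum, growth control and secreted signals. BMAL1 belongs to the same bHLH-PAS protein family as ARNT and binds, with CLOCK, the E-box letters CACGTG, which contain one form of the HIF core.

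Promoter windows of RefSeq (GRCm38.p6, 250 bases before to 50 after each start) were found for 30 of the 32 genes. The letters ACGTG or GCGTG, on either strand, were present in a window of 29 of these 30 genes (96.7%), against 46.7% of all genes with a window and 68.6% of the genes tested here. Vldlr was the exception. Per window the share was 78.3% of 46 against 43.8% of all 32851 and 62.3% of the windows of tested genes. The E-box CACGTG, which overlaps ACGTG, was held by 9 of the 30 genes, against 8.09% of all genes and 11.9% of tested genes. The median GC content was 63.8% in the members' windows, 61.0% in those of tested genes and 52.7% in all. Members were picked as known HIF targets, so these shares are a description, not independent evidence of binding.

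The 250 bases before the start are printed for 5 genes that span the results: the widest difference between the sets (Ankrd37), the 2 smallest unadjusted p-values for unequal set differences (Bnip3 and Stc2), and the pair with opposite genotype differences (Cited2 and Tfrc). They were chosen after their values were seen. Capitals mark the core letters named above, the E-box included, on either strand, and positions are counted back from the start site. Ankrd37 (chr8:45999851-46000100, minus strand) held 3 marked runs. These were ACGTG 241 and 6 bases before the start, and an overlapping CACGC and GCGTG at 155 and 152. Stc2 (chr11:31370062-31370311, minus strand) held 2 marked runs, 240 and 231 bases before the start. Bnip3 (chr7:138909507-138909756, minus strand) and Cited2 (chr10:17722978-17723227, plus strand) each held the E-box. Tfrc (the first of its windows, chr16:32608646-32608895, plus strand) held CACGC, which is GCGTG read on the other strand, 117 and 64 bases before the start. An ACGTG at position -2 of the same window runs past the printed bases and is not marked. The other Tfrc window held both ACGTG and GCGTG.
Ankrd37: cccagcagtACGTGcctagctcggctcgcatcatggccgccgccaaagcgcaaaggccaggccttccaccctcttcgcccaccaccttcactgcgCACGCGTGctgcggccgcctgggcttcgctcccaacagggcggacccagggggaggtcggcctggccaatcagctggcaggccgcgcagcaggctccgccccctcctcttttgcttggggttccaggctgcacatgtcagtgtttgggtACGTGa
Stc2: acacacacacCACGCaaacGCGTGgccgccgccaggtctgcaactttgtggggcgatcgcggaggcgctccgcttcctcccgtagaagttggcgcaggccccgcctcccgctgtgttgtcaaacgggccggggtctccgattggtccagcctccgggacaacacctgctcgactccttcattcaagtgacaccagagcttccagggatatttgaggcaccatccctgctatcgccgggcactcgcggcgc
Bnip3: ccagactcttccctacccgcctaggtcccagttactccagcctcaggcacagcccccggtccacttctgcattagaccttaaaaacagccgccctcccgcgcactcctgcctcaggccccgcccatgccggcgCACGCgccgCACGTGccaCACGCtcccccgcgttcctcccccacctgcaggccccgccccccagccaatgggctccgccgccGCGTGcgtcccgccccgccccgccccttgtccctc
Cited2: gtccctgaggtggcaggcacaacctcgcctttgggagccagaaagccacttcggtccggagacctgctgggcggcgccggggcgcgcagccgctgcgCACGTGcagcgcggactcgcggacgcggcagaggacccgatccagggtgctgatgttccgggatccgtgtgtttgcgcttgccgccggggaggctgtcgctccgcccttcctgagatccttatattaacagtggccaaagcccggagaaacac
Tfrc: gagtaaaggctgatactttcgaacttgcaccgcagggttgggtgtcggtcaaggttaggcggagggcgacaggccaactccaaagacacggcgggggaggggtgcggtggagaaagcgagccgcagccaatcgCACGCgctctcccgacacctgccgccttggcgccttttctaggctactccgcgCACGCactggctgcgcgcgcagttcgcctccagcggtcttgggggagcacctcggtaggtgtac

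Most of the genes stood far higher in the second set than in the first, in both genotypes. In wildtype libraries 27 of 32 were called higher and 0 lower, against 9.79% and 6.96% of all 12553 genes tested (limma, Benjamini-Hochberg adjusted p below 0.05). In knockout libraries 26 of 32 were called higher and 0 lower, against 11.2% and 7.89% of all genes. At least 2-fold higher were 21 genes in wildtype and 20 in knockout, a size for which the share of all genes was not counted. The median log2 difference over the 32 genes was 1.58 in wildtype and 1.46 in knockout, beside 0.01 and -0.02 over all tested genes. Differences are second minus first set on the log2(normalized count + 1) scale, on which changes of genes with few counts come out too small. The sets were compared with earlier results of these data known, so the tests give size against spread and are not independent support.

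**Figure D1:**
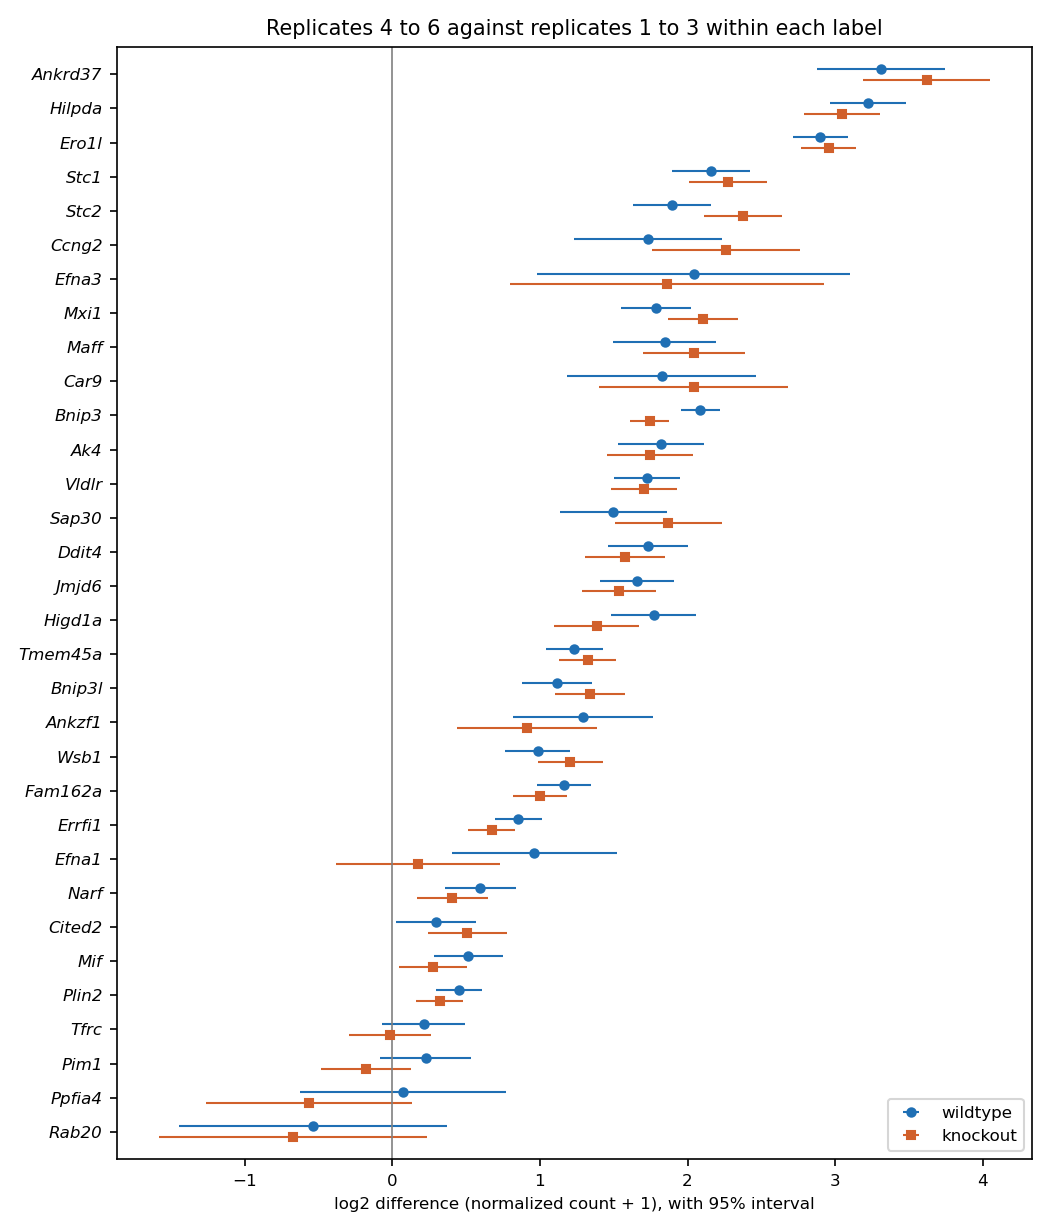
Log2 difference between the second and first set for each of the 32 genes, in wildtype and in knockout libraries (3 libraries per set), with 95% intervals. Ankrd37, Hilpda and Ero1l lie farthest to the right, and Tfrc, Pim1, Ppfia4 and Rab20 lie around 0.

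Mitochondrial genes rose together: 5 of 5 were called higher in both genotypes. Bnip3 (chromosome 7, 138890836 to 138909519, minus strand, mm10), an outer membrane receptor for mitochondrial autophagy, stood at 967, 932 and 974 normalized counts in the first wildtype set and 4148, 4016 and 4050 in the second. The knockout sets held 1159, 1286 and 1102, then 3876, 3948 and 4044. No library of a first set reached a second set, and the log2 differences were 2.09 in wildtype and 1.74 in knockout (SE 0.06 each; limma adjusted p = 2.56e-10 and 9.44e-10). Ak4, a mitochondrial adenylate kinase, stood at 239, 248 and 197, then 908, 714 and 799 in wildtype. It stood at 312, 221 and 275, then 950, 929 and 820 in knockout, so its sets were as clearly apart (log2 differences 1.82 and 1.75). Bnip3l, the paralogue of Bnip3, rose by 1.11 and 1.34, Higd1a, a respiratory chain assembly factor, by 1.77 and 1.38, and Fam162a, a mitochondrial protein, by 1.16 and 1.00.

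Lipid genes were also called higher in 3 of 3 cases in both genotypes, with unequal sizes. Hilpda (chromosome 6, 29272488 to 29275446, plus strand), which inhibits the triglyceride lipase ATGL at lipid droplets, stood at 45.8, 44.9 and 36.4, then 386, 428 and 394 in wildtype. In knockout it stood at 41.2, 47.3 and 43.5, then 359, 370 and 382. The sets differed 9.50-fold and 8.42-fold as ratios of means (limma adjusted p = 1.88e-09 and 2.37e-09). Vldlr, a receptor for triglyceride-rich lipoproteins, stood at 463, 384 and 429, then 1495, 1405 and 1314 in wildtype. It stood at 344, 442 and 365, then 1166, 1340 and 1241 in knockout, with log2 differences of 1.72 and 1.71. Plin2, a lipid droplet coat protein, rose by only 0.45 and 0.32, and its knockout call was lost under quantile scaling (0.22, limma adjusted p = 0.0808).

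Among regulators of transcription and chromatin, 4 of 5 were called in wildtype and 5 of 5 in knockout. Mxi1, an antagonist of MYC, stood at 153, 198 and 174, then 552, 601 and 658 in wildtype, and at 153, 146 and 131, then 645, 630 and 586 in knockout. Maff, a small MAF protein, stood at 37.0, 48.0 and 55.1, then 161, 183 and 161 in wildtype, and at 51.1, 42.3 and 46.1, then 177, 212 and 195 in knockout. Neither gene's sets overlapped, with log2 differences of 1.78 and 2.11 for Mxi1 and 1.84 and 2.04 for Maff. Sap30, a subunit of the SIN3 histone deacetylase complex, rose by 1.498 and 1.87, and Jmjd6, a JmjC-domain oxygenase, by 1.66 and 1.53. Cited2, which competes with HIF alpha for the CBP and p300 coactivators, had a log2 difference of 0.30 in wildtype (adjusted p = 0.125) and 0.51 in knockout (adjusted p = 0.0116, limma). The knockout call of Cited2 was lost without knockout replicate 1 (adjusted p = 0.0562) or replicate 4 (adjusted p = 0.055).

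Of the 4 genes of growth control, 3 were called higher in each genotype. Ddit4, which restrains mTORC1, stood at 448, 316 and 478, then 1382, 1374 and 1316 in wildtype, and at 403, 356 and 351, then 1076, 1118 and 1115 in knockout. Ccng2, an atypical cyclin tied to cell cycle arrest, stood at 169, 404 and 201, then 755, 823 and 815 in wildtype, and at 143, 173 and 152, then 770, 704 and 778 in knockout. Wildtype replicate 2, the library with the most genes at 0 (29.6%, against 13.0% in the lowest library), was the high one in the first set of Ccng2. The log2 differences were 1.73 and 1.58 for Ddit4 and 1.73 and 2.26 for Ccng2. Errfi1, a feedback inhibitor of the EGF receptor, rose by 0.85 and 0.67, and the kinase gene Pim1 had differences of 0.23 and -0.18, neither called.

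Secreted and surface signals were called in 5 of 5 cases in wildtype and 3 of 5 in knockout. Stc1, a secreted glycoprotein of the stanniocalcin family, stood at 69.6, 86.7 and 96.2, then 361, 379 and 388 in wildtype, and at 99.7, 87.1 and 83.4, then 454, 436 and 425 in knockout. Its relative Stc2 (chromosome 11, 31357307 to 31370074, minus strand) stood at 176, 125 and 174, then 578, 572 and 605 in wildtype, and at 102, 119 and 106, then 567, 586 and 557 in knockout. The second sets of Stc2 shared a range, whereas its first knockout set lay below its first wildtype set. Efna3, an ephrin ligand, was low (mean 17.4) and began from 1.76, 6.19 and 5.61 in wildtype, where 1.76 lies under the floor of 3 reads. Its wildtype call (log2 difference 2.04) was lost without wildtype replicate 5, and its knockout call (1.86) without knockout replicate 1, 2, 4 or 5. Efna1, another ephrin, was called in wildtype (0.96, adjusted p = 0.0221) but not without wildtype replicate 4 or 5, and was not called in knockout (0.17, adjusted p = 0.707, limma). Mif, a cytokine gene with many pseudogene copies and therefore an uncertain level, differed by 0.52 and 0.27, the latter not called. This knockout difference was called higher with DESeq2 (adjusted p = 0.0482) and with library weights (limma adjusted p = 0.0062). It was also called without wildtype replicate 2 (limma adjusted p = 0.00167) and without the shallowest library of each label (limma adjusted p = 0.00749).

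Of the membrane genes, Car9 and Tmem45a were called and Tfrc was not. Without wildtype replicate 1, however, Tfrc was called higher in wildtype (log2 difference 0.40, limma adjusted p = 0.0102). Car9, a carbonic anhydrase at the cell surface, stood at 43.1, 40.3 and 25.2, then 129, 149 and 108 in wildtype, and at 51.1, 37.3 and 22.2, then 138, 189 and 121 in knockout. Tmem45a, a transmembrane protein, stood at 460, 421 and 463, then 1041, 1135 and 991 in wildtype, and at 416, 424 and 349, then 1039, 1003 and 934 in knockout. Car9 had the wider spread (SE 0.30 on a log2 difference of 1.83 and 2.04) and Tmem45a the narrower (SE 0.09 on 1.23 and 1.33).

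In the protein-handling group 3 of 3 were called in both genotypes. Ero1l (chromosome 14, 45283087 to 45318771, minus strand), the oxidase that drives disulfide formation in the endoplasmic reticulum, stood at 791, 691 and 814, then 5648, 5659 and 5788 in wildtype. In knockout it stood at 747, 908 and 720, then 6040, 6295 and 6050, which is 7.45-fold and 7.74-fold as ratios of means (limma adjusted p = 2.56e-10 and 1.99e-10). Ankzf1, which releases stalled chains from ribosomes, stood at 49.3, 68.1 and 48.6, then 126, 154 and 127 in wildtype, and at 51.9, 46.0 and 36.4, then 64.3, 110 and 83.9 in knockout. Its knockout call (0.91) was lost without knockout replicate 5. Wsb1, a ubiquitin ligase subunit, rose by 0.98 and 1.21.

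The remaining genes held both ends of the order. Ankrd37 (chromosome 8, 45996902 to 46005707, minus strand), an ankyrin repeat protein, stood at 22.9, 20.1 and 22.4, then 247, 212 and 218 in wildtype, and at 15.7, 13.7 and 11.5, then 138, 175 and 233 in knockout. These are ratios of means of 10.3 and 13.3, with log2 differences of 3.31 and 3.62 (SE 0.20 each). Narf, a nuclear protein that binds prelamin A, stood at 229, 220 and 218, then 329, 335 and 345 in wildtype, and at 291, 215 and 258, then 353, 300 and 357 in knockout. Narf moved less than the other genes whose libraries are plotted, with log2 differences of 0.60 and 0.41, and its knockout call was lost in 7 alternatives. Ppfia4, a liprin, and Rab20, a small GTPase gene with a mean of only 10.6, were not called in either genotype, with differences of 0.07 and -0.56 and of -0.54 and -0.67.

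**Figure D2:**
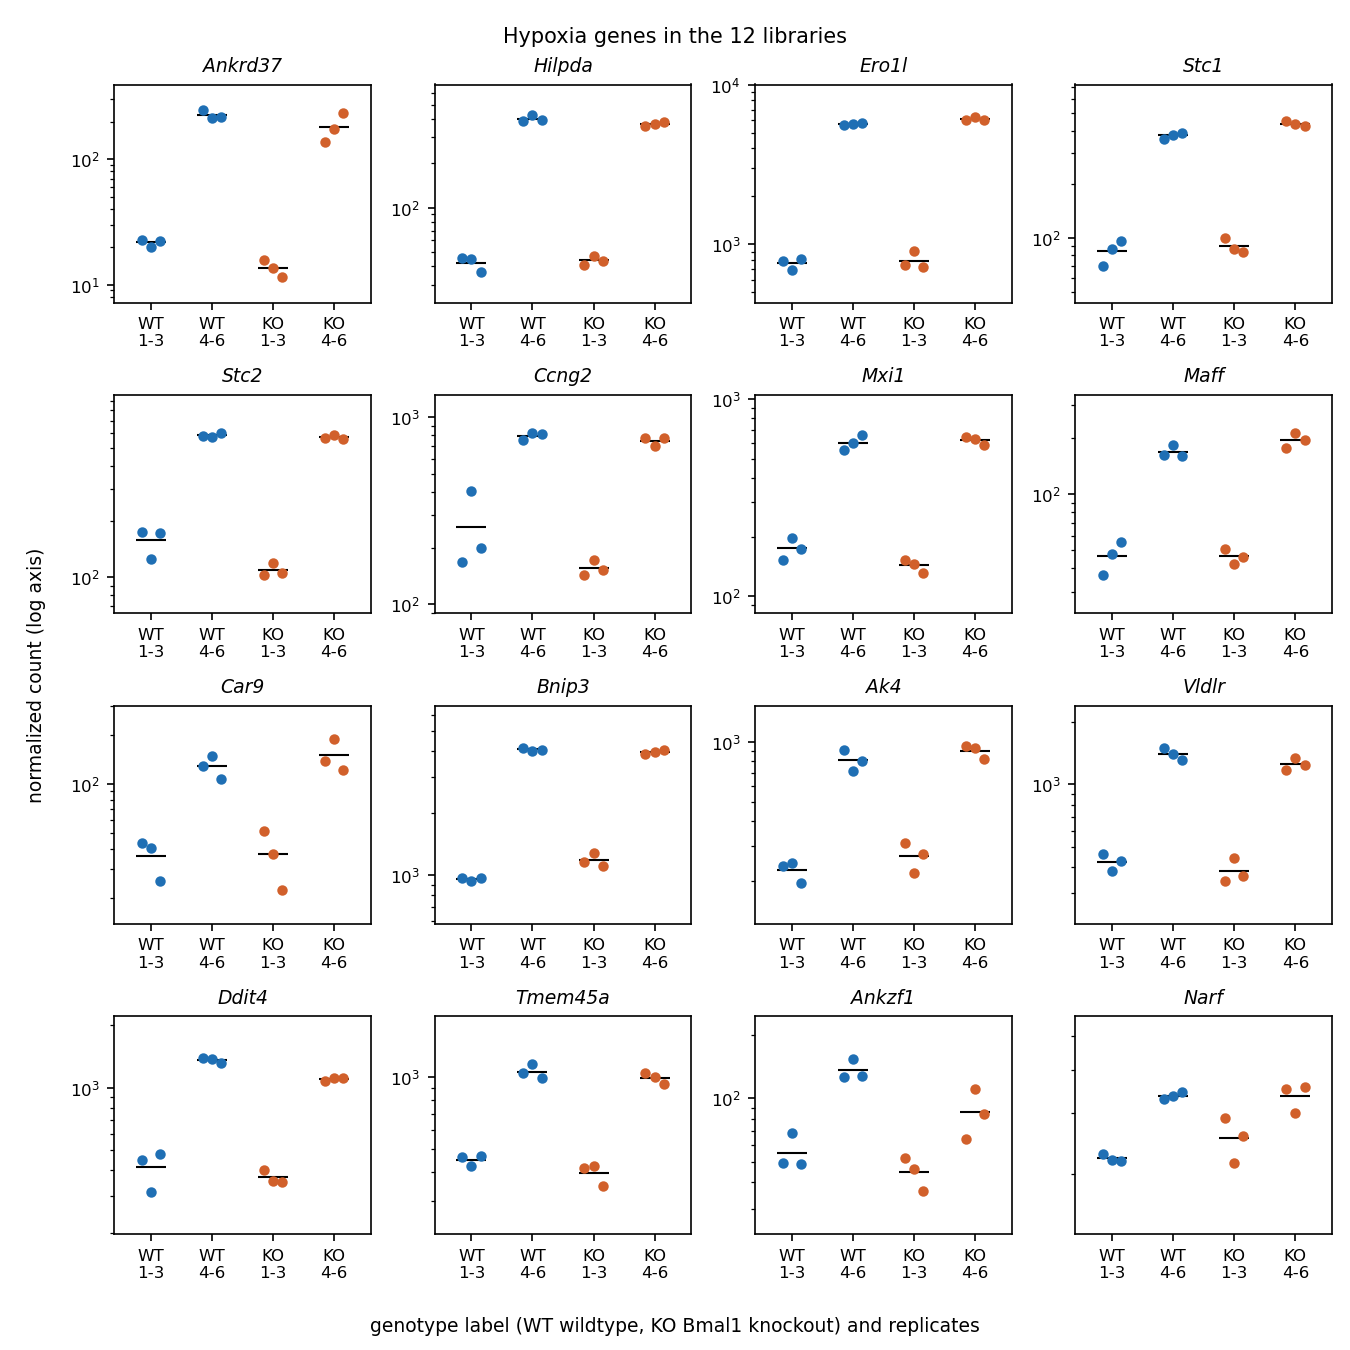
Normalized counts (log axis) of 16 of the genes in each of the 12 libraries, by genotype and set, with a black line at each set mean. For all 16, no library of a first set reaches the second set of its genotype, and Narf shows the smallest step. The 16 were picked for the largest set differences of their role groups, so their separation says nothing about the other genes. The share of all tested genes with such a gap was not counted.

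Ordered by the mean of both differences, Ankrd37 (3.47), Hilpda (3.14) and Ero1l (2.93) stood above the next, Stc1, with no overlap of 95% intervals in either genotype. From Stc1 (2.22) to Higd1a (1.58), the intervals of neighbours in the order overlapped in both genotypes. Across the 32 genes the wildtype and knockout differences correlated with Pearson's r of 0.961 and Spearman's rho of 0.938, beside 0.669 and 0.556 across all tested genes. This is across genes, which are not independent replicates, and the sets of the 2 genotypes share no library.

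The glycolytic targets also stood higher in the second sets, whereas most genes of the HIF machinery were not called. Of 21 glycolytic hypoxia targets, 19 were called higher and 0 lower in each genotype, with medians of 0.93 and 0.84, and were led by the glucose transporters Slc2a3 (3.27 and 3.43) and Slc2a1 (2.76 and 2.55). Of 14 tested genes of the HIF machinery, 3 were higher and 1 lower in wildtype, and 5 higher and 1 lower in knockout, beside the shares of all genes given above (9.79% and 6.96%, then 11.2% and 7.89%). The higher ones were Egln1, Egln3 and Vhl in both genotypes and also Epas1 and Crebbp in knockout. Egln3, a HIF prolyl hydroxylase, rose by 3.14 and 3.25, and Vhl, the substrate receptor of the HIF ubiquitin ligase, by 2.06 and 1.91. Hif1a, which encodes the HIF-1 alpha subunit and is named after its value was seen, was the one called lower (-0.72 and -0.62). The summed level of undifferentiated myoblast markers was 592 to 763 in the first and 1171 to 1220 in the second wildtype set, and 533 to 591 and 909 to 975 in knockout. Sdc4, the most abundant of the 6, carried that sum (log2 differences 1.56 and 1.46), and the markers did not move as a group. In wildtype Sdc4 and Cdh15 were called higher and Myod1 lower, and in knockout Sdc4 alone was called (3 of 6 with positive and 3 with negative differences). The adipocyte marker Fabp4 was called higher in both genotypes (0.97 and 0.92). Their part, and that of the abundant non-coding genes, was not tested.

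The second question was whether the difference between sets depended on genotype. None of the 32 genes was called, in either direction, in the difference of the set differences (knockout minus wildtype, limma interaction term). Over all genes 0.0% were called higher and 0.00797% lower, which is 1 gene (mt-Co2, named after its value was seen), so the comparison had few calls anywhere. At an unadjusted p below 0.05 there were 2 of the 32 genes and 1070 of 12553. edgeR called 0 genes and DESeq2 called 16 higher and 13 lower on the recovered reads, and no gene of the 32 was among them. The median difference over the 32 genes was -0.13, beside -0.01 over all.

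Bnip3 had a smaller set difference in knockout by 0.34 on the log2 scale (95% interval -0.53 to -0.15; unadjusted p = 0.00184, adjusted p = 0.468, limma). Over the alternatives its estimate ran from -0.45 to -0.28 and its adjusted p from 0.0501, with DESeq2, to 0.83. Its first sets did not overlap between genotypes (932 to 974 against 1102 to 1286), while its second sets did. Stc2 had a larger one in knockout by 0.48 (95% interval 0.11 to 0.86; unadjusted p = 0.0151, adjusted p = 0.552, limma), with an adjusted p of 0.109 to 0.83 over the alternatives. The estimates ran from -0.79 for Efna1 (95% interval -1.58 to 0.00) to 0.53 for Ccng2 (-0.18 to 1.24). For the strongest risers the intervals were -0.30 to 0.92 (Ankrd37), -0.54 to 0.19 (Hilpda) and -0.20 to 0.32 (Ero1l). A missed threshold does not show equal differences, and these intervals state what remains possible.

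**Figure D3:**
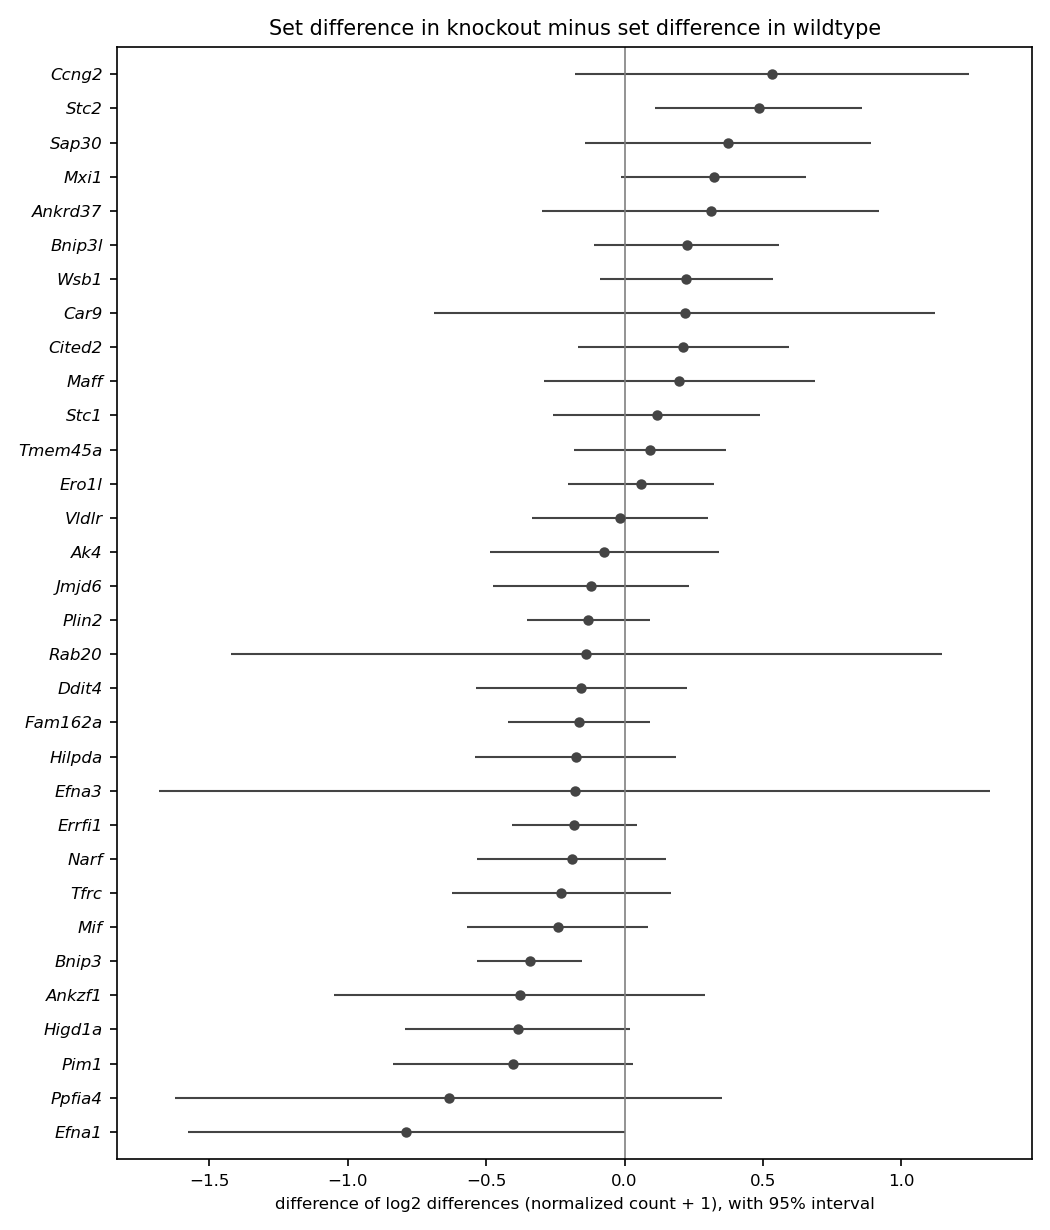
Difference of the log2 set differences, knockout minus wildtype, with 95% intervals for the 32 genes. Only the intervals of Bnip3 and Stc2 lie fully on one side of 0, and no gene was called after adjustment.

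Levels themselves differed by genotype label for some of the genes. Across the labels as deposited, Tfrc was called higher in knockout, and Cited2, Pim1 and Ppfia4 lower, which is 1 and 3 of 32 against 10.2% and 9.07% of all genes. With the sets as a term, 6 were higher and 8 lower, against 16.2% and 14.5% of all genes. Within the first sets 6 were higher and 5 lower, against 10.8% and 7.97%, and within the second sets 1 was higher and 4 lower, against 8.84% and 7.64%. The counts across the labels lie near or below the background, as do the 6 higher with the sets as a term. So does the 1 higher within the second sets. None of these counts is a result about the group. With the abundant genes left out, the counts with the sets as a term were 1 higher and 14 lower, beside 1024 and 3472 of all 12563 genes. The median of all genes moved by -0.16, so directions of small differences depend on the scale. Cell type markers also differed by label. With the sets as a term, 6 of 10 muscle markers were higher in knockout and 2 lower (Actn2 and Myog), and 4 of 6 endothelial markers were higher (Cdh5, Emcn, Kdr and Pecam1). Of 6 myoblast markers, Msc, Myf5 and Myod1 were lower and Cdh15 higher, and of 7 fibroblast markers Thy1 was higher and Dcn and Lum lower. Their part was not tested.

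Cited2 (chromosome 10, 17723218 to 17725674, plus strand) stood at 422, 400 and 486, then 480, 527 and 601 in wildtype. In knockout it stood at 199, 220 and 253, then 359, 284 and 316, below every wildtype library. The log2 difference with the sets as a term was -0.85 (SE 0.09, limma adjusted p = 1.55e-05). Pim1 (chromosome 17, 29490753 to 29496112, plus strand) stood at 130, 150 and 129, then 167, 149 and 163 in wildtype, and at 91.5, 88.3 and 92.3, then 68.2, 76.6 and 98.2 in knockout. Its labels did not overlap either (-0.78, SE 0.10, limma adjusted p = 8.63e-05).

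Tfrc (chromosome 16, 32608920 to 32632794, plus strand), the transferrin receptor that brings iron into cells, went the other way. It stood at 1191, 805 and 818, then 1136, 1067 and 1004 in wildtype, and at 1625, 1636 and 1527, then 1577, 1739 and 1428 in knockout, with no overlap (0.68, SE 0.09, limma adjusted p = 0.000129). Within the second sets its call was lost under quantile scaling and with the abundant genes left out. Ppfia4 stood at 64.3, 77.4 and 50.5, then 72.3, 70.0 and 57.8 in wildtype, and at 67.6, 26.1 and 42.6, then 19.5, 33.8 and 34.3 in knockout. Its labels overlapped through knockout replicate 1 (-0.88, SE 0.23, limma adjusted p = 0.0108), and across the labels its call was lost without the shallowest library of each label (-0.67, adjusted p = 0.0553).

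**Figure D4:**
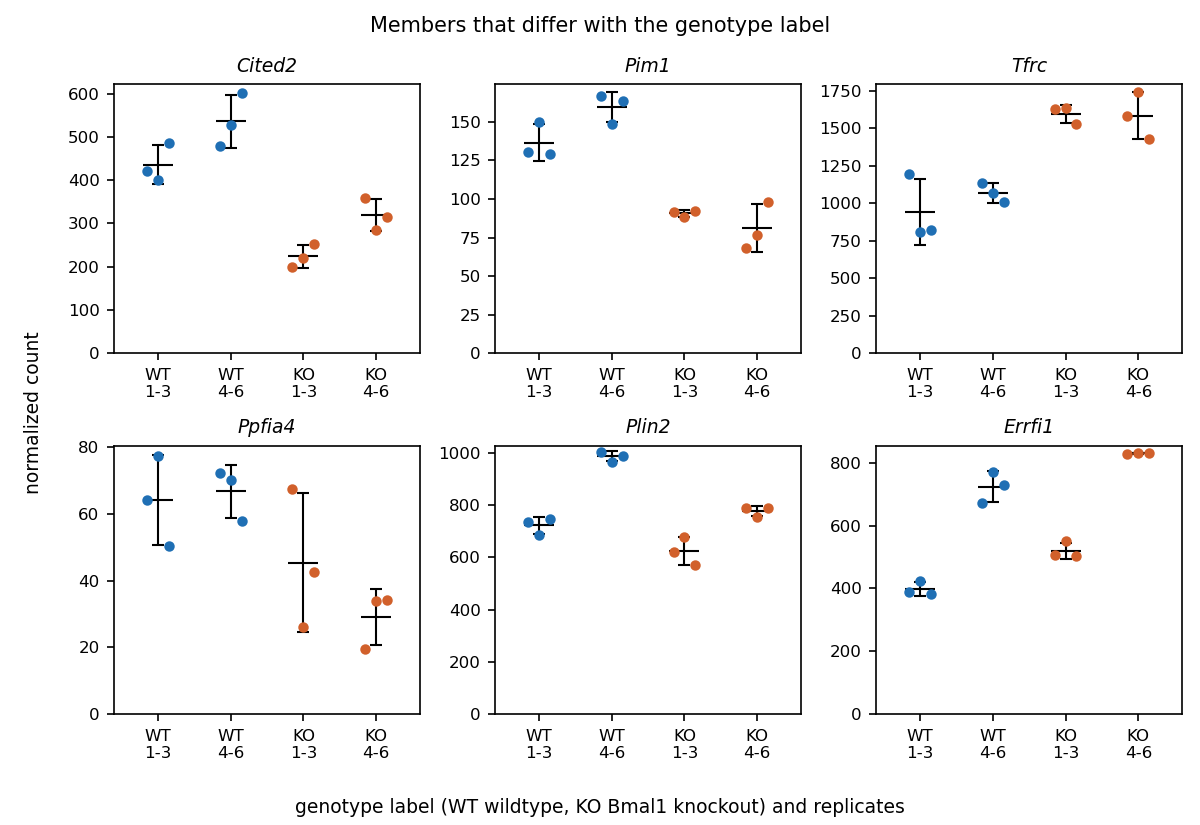
Normalized counts of Cited2, Pim1, Tfrc, Ppfia4, Plin2 and Errfi1 by genotype and set, as points for the libraries with mean ± SD (n = 3 per set). Cited2 and Pim1 lie lower and Tfrc higher in every knockout library than in every wildtype library.

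Smaller genotype differences were seen in genes that rose between the sets. Plin2 stood at 735, 685 and 747, then 1004, 966 and 989 in wildtype, and at 619, 679 and 571, then 788, 754 and 788 in knockout (-0.28, limma adjusted p = 0.00123). Sap30 was lower by 0.55 on the log2 scale (-0.55, adjusted p = 0.00396), from 59.9, 83.6 and 85.0 against 53.6, 42.3 and 39.9 in the first sets and 217, 199 and 228 against 172, 146 and 185 in the second. Errfi1 was higher in knockout in both sets, at 508, 550 and 504 against 390, 424 and 383, and 828.6, 831 and 831 against 671, 769 and 729 (0.29, adjusted p = 0.00105). Ankrd37, Ankzf1 and Stc2 were also called lower, and Fam162a, Mif, Efna1 and Bnip3 higher. These calls did not all hold: Efna1 was called in 12 of 22 alternatives and, of 23, Bnip3 in 10, Stc2 in 15, Ankzf1 in 16, Fam162a and Mif in 21 and Ankrd37 in 22. The call of Ankrd37 was lost without wildtype replicate 4. That of Ankzf1 was lost without wildtype replicate 4 or 5 or knockout replicate 3, 4 or 6, and that of Efna1 without wildtype replicate 4, 5 or 6 or knockout replicate 1, 2, 3 or 6. Stc2 lost its call without wildtype replicate 1, 3, 4 or 6 or knockout replicate 1, 3, 4 or 6, and Bnip3 without any 1 library other than wildtype replicates 2 and 3 and knockout replicate 3. Fam162a and Mif lost theirs under quantile scaling and with the abundant genes left out. The sign of Bnip3 (0.13) turned to -0.11 under quantile scaling and to -0.03 with the abundant genes left out. Within the second sets, Bnip3 was then called lower under both settings (-0.34, adjusted p = 0.00531, and -0.20, adjusted p = 0.0452, limma). Calls were also gained: with the sets as a term, 22 genes were called in at least 1 alternative, beside 14 as reported. Called in alternatives only were Ak4 and Efna3, higher, and Ccng2, Ddit4, Mxi1, Tmem45a, Vldlr and Wsb1, lower. Ddit4 (-0.22, limma adjusted p = 0.0756) was called in 6 of 23.

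**Figure D5:**
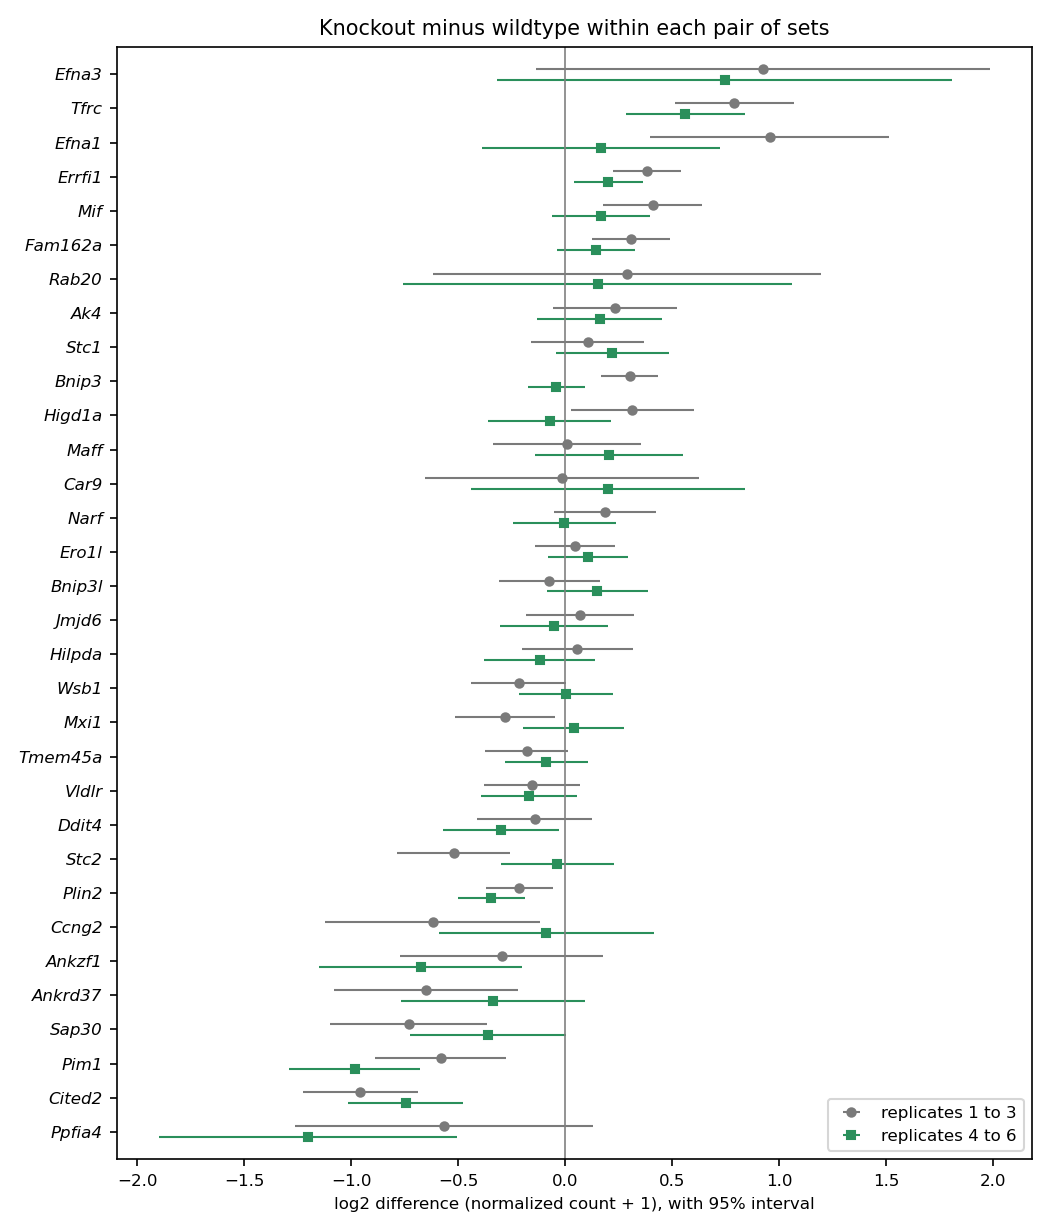
Log2 difference between knockout and wildtype within the first sets (replicates 1 to 3) and the second sets (replicates 4 to 6), with 95% intervals. Tfrc lies right of 0 and Cited2, Pim1 and Plin2 left of 0 in both, while Bnip3 and Stc2 lie off 0 in the first sets only.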

How the data were processed

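RNA from 12 myotube libraries was sequenced as stranded total RNA, per the labels' protocols. The authors deposited a signal table of normalized counts; per the submitters' processing notes, Trimmomatic 0.33, STAR 2.5.2, RSEM 1.3.3, DESeq2 and mm10 were used, with roles and order not given there. Every value was a whole number of reads divided by 1 factor per library (100% within 1e-06 reads). A floor of 3 reads came to 2.12 to 5.85 normalized counts, for counting error only. Which annotation the counting used was not stated. Names and coordinates come from GENCODE M21 (GRCm38), which named 19953 of 20201 identifiers (98.8%). All library pairs differed beyond sampling noise (smallest chi-square per degree of freedom 5.04).

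Groups came from the genotype label, and replicate numbers follow accession order. Values were tested as log2(normalized count + 1) in limma 3.58.1 (trended prior, two-sided) for the 12553 genes whose mean reached 10, with Benjamini-Hochberg adjustment and a threshold of 0.05. One fit had a coefficient per set; the label contrast was a separate fit of 6 against 6. Alternatives were pseudocounts of 0.5 and 10, other filters and scalings, library weights, edgeR 4.0.16 and DESeq2 1.42.0 on recovered reads, and leaving out each library in turn. Leaving out the shallowest library of each label together was chosen after seeing the data. Per-library values are given for the 2 genes of each role group with the largest mean set difference and a mean of 50 or more; those of Cited2, Pim1, Tfrc, Ppfia4, Plin2, Sap30, Errfi1 and Efna3 were added after their values were seen. The members and lists were chosen with earlier results of these data known. Steps were tested on simulated data. R 4.3.3 and Python 3.11.15 were used.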

Additional observations from a re-analysis of the deposited data

Results flagged for a closer look

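Of 64 combinations of a gene and a label of 6 libraries, 1 stood apart by the gap between its most extreme library and the nearest other. Efna1 was at 42.0 normalized counts in knockout replicate 6, against 29.9 to 33.8 in the other 5 knockout libraries. Chance alone flags about 1 in 20 groups whose 6 libraries share a level. Here the 6 libraries of a label span both sets. Where the sets lie far apart, a stray library within a set can hardly be flagged. The few flags therefore do not show that libraries within a set were alike.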

How the results depend on the processing

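No paired analysis was possible because the labels give no replicate numbers shared between groups. The counts of genes called between sets stayed within 1.5 times the reported ones under all 23 alternatives, from 25 to 28 higher in wildtype and 23 to 27 higher in knockout when 1 library was left out, with 0 lower. Of the calls, 25 in wildtype and 21 in knockout held in every alternative that tested them. The difference of set differences called 0 of the 32 genes in every alternative, and 0 with any 1 library left out. Across the labels, 1 was higher and 3 lower with any 1 library left out.

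Genotype counts depended on the scale. With the sets as a term, 6 higher became 3 under quantile scaling and 1 with the abundant genes left out, and 8 lower became 14 with them left out. Within the first sets, 6 higher became 3 under quantile scaling and 3 with the abundant genes left out, where 5 lower became 10. Within the second sets, 1 higher became 0 under quantile scaling, 0 with the abundant genes left out and 2 with library weights, and 4 lower became 8 with the abundant genes left out. Leaving out 1 library gave 4 to 7 higher and 5 to 10 lower with the sets as a term (5 without wildtype replicate 4), 3 to 7 and 4 to 7 within the first sets (3 without knockout replicate 1), and 1 to 3 and 3 to 6 within the second (3 higher without wildtype replicate 2). The genotype difference of Bnip3 turned to -0.11 under quantile scaling and -0.029 with the abundant genes left out. With the sets as a term, Cited2, Pim1, Plin2, Ppfia4, Sap30 and Tfrc were called in every alternative; the cause of the other changes was not tested. Rab20, Efna3 and Efna1 had means of 10.6, 17.4 and 28.9 normalized counts, beside a floor of 2.12 to 5.85; the part of depth in their results was not tested.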
